A study of Mus musculus with 6 samples.

Results

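Of the Wnt ligand genes, 10 are described here in sorted newborn mouse epidermis of Eed cKO and control mice. They are Wnt3, Wnt4, Wnt5a, Wnt5b, Wnt6, Wnt7a, Wnt7b, Wnt10a, Wnt10b and Wnt16, and they were found by gene symbol among the 24453 symbols of the count files. All 10 were present and all 10 passed the filter on low counts, as did 14700 genes in all. The mouse family has 9 further Wnt genes in the files, which serve as a comparison. RNA came from epidermal cells of back skin at postnatal day 0, in 3 Eed cKO libraries, whose genotype is labelled Eed-/-, and 3 control libraries. All 6 libraries share the same sort for cells of the interfollicular epidermis, by EpCAM, Sca1 and high α6-integrin, and the same amplification of total RNA. The sources used here do not give the strain, the driver of the Cre recombinase, the deleted exons, the alleles of the controls or the number of animals behind a library. The p-values therefore measure the spread between libraries, which may be technical.

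Wnt proteins are secreted, lipid-modified signals. Porcupine (Porcn) attaches the lipid, Wntless (Wls) carries the ligand to the cell surface, and Frizzled receptors with Lrp5 or Lrp6 receive it, which stabilises β-catenin and lets it act with Tcf and Lef factors. Some ligands, Wnt5a above all, also signal without β-catenin through Ror and Ryk receptors. In skin, Wnt signals made by the epidermis are required for hair follicle formation and help maintain basal progenitors. Eed belongs to the Polycomb complex PRC2, the histone methyltransferase that marks many CpG-rich promoters of silent developmental genes.

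Library totals ran from 20998149 to 27447679 counts in Eed cKO and from 25481306 to 29998531 in control. Eed was at 29.2 to 37.0 CPM (counts scaled to a common library size) in Eed cKO and at 41.1 to 53.1 CPM in control (log2 fold change -0.48 ± 0.19 SE, edgeR adjusted p 0.252), and a whole-gene count checks a deletion of unknown exons little. The 7 basal keratinocyte markers were all present, summing to 30375 to 40105 CPM in Eed cKO and 35628 to 42325 CPM in control. Most of this sum was Krt5, and 0 of the 7 markers were called. Krt15, Trp63 and Col17a1 had groups that were apart and lower in Eed cKO (9.22% of all tested genes). Their log2 fold change was -0.37 each (edgeR adjusted p 0.394, 0.266 and 0.278). Of the sort genes, Epcam was called higher in Eed cKO (log2 fold change 0.77, edgeR adjusted p 0.0433). The immune marker list (6 genes) was highest in library 1 of each group, at 159 CPM in Eed cKO 1 and 205 CPM in control 1. Its member Cd207 was at 0 counts in every Eed cKO library and at 8, 1 and 0 counts in control libraries 1, 2 and 3, too few to be tested. Xist was at 8.55 CPM in Eed cKO 2 and at 5297 CPM or more in the other 5 libraries.

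The promoters of Wnt4 and Wnt16 are printed because these are the ligands nearest to the threshold of the test, one lower and the other higher in Eed cKO. Each line is read from the plus strand of GRCm38.p6, 5′ to 3′, with every CG dinucleotide in capitals. The RefSeq windows hold the 250 bases before each start. The Wnt16 window, chr6:22287977-22288226, is whole. For Wnt4 the stretch chr4:137277385-137277488 is shown, which ends before the start that GENCODE M21 gives at base 137277489, inside the RefSeq window.
Wnt4: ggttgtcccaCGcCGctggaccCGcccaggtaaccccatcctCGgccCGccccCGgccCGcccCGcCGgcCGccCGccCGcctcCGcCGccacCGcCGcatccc
Wnt16: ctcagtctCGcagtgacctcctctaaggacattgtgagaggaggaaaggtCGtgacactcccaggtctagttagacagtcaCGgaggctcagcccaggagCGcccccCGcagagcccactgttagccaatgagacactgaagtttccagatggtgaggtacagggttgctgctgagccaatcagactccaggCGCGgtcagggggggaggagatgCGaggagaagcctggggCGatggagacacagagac

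The whole Wnt4 window held 44 CG dinucleotides and the Wnt16 window 9. Most of the Wnt4 count lies past the GENCODE start, outside the stretch printed above. Of the 32851 promoter windows in the RefSeq table, whose median was 6, 0.539% held at least as many as Wnt4 and 40.3% at least as many as Wnt16. RefSeq windows were found for 7 of the 10 ligands. There were 35 CG dinucleotides before the most upstream of 3 listed starts of Wnt5b, 34 before Wnt7a, 28 before Wnt6, 22 before Wnt3 and 14 before Wnt10b. The other 2 starts of Wnt5b had 4 and 7. A count of CG is a property of the sequence and does not show that PRC2 was bound there.

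Per exon length, Wnt4 was the most abundant of these transcripts in both genotypes, and none of the 10 ligands was called changed. With edgeR's quasi-likelihood test, Benjamini-Hochberg adjustment over all genes and a threshold of 0.05, 0 of 10 ligands were higher and 0 were lower in Eed cKO. Over all 14700 genes the same test called 3.39% higher and 0.816% lower (4.21% in either direction), so a count of 0 among 10 is near the background. At an unadjusted p under 0.05 there were 2 ligands, Wnt4 and Wnt16, against 14.9% of all genes. DESeq2 called 1 ligand higher and 1 lower (4.90% and 1.64% of all genes), again Wnt16 and Wnt4, and limma-voom called 0 higher and 1 lower (3.23% and 0.823%). The log2 fold change was positive for 5 ligands and negative for 5, with a median of 0.02, against -0.01 over all tested genes. The library ranges of the 2 groups were apart for 1 ligand that was higher (11.0% of all genes) and for 2 that were lower (9.22% of all genes).

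**Figure D1:**
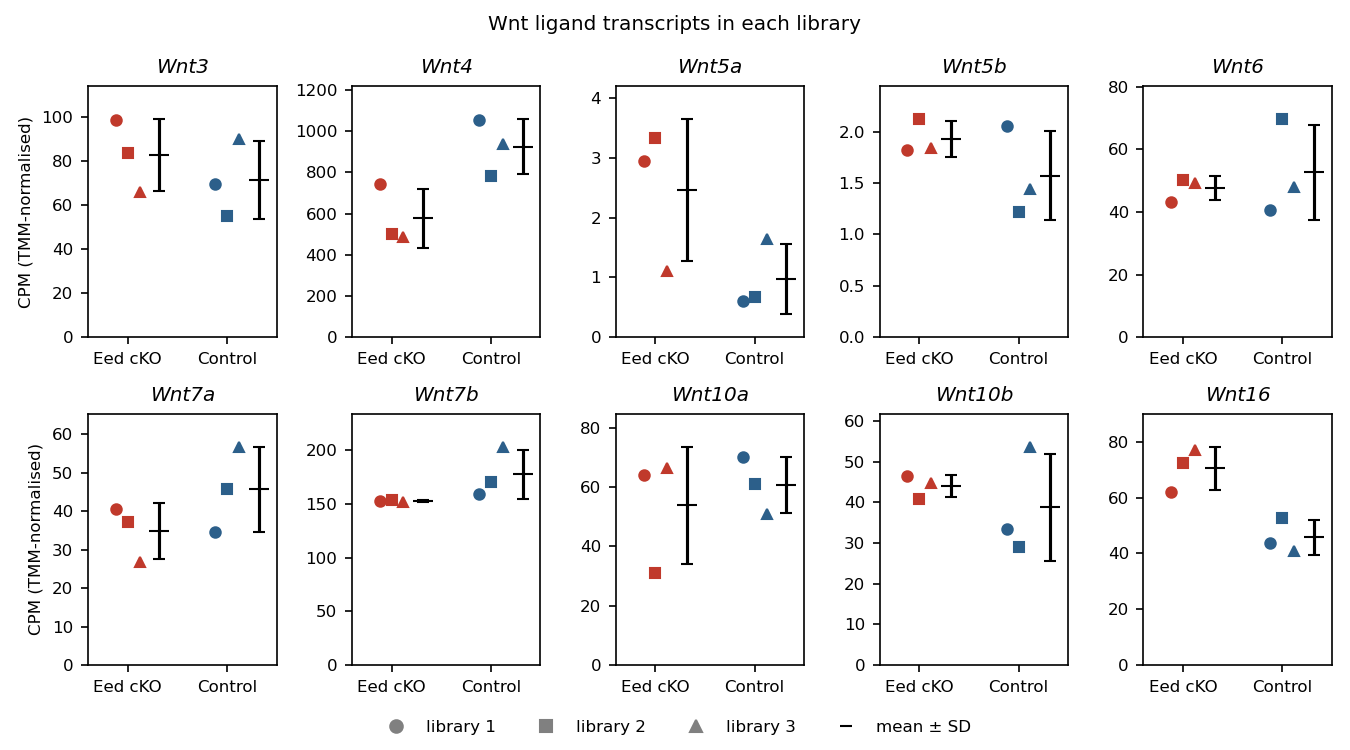
Normalised CPM (linear axes from 0) of the 10 Wnt ligands in each library, with Eed cKO in red and control in blue, symbols for library numbers and black bars for the mean ± SD of 3 libraries. The groups are apart in the panels of Wnt4, Wnt7b and Wnt16 and overlap in the other 7.

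Wnt4, a ligand required in mice for kidney tubules and the female reproductive tract, is located on chromosome 4 (GRCm38, 137277489 to 137299726, plus strand). Its level was 744, 501 and 486 CPM in Eed cKO libraries 1, 2 and 3, against 1052, 784 and 939 CPM in control libraries 1, 2 and 3. The highest Eed cKO library, number 1, lay just below the lowest control library, number 2. The means were 577 ± 144 CPM in Eed cKO and 925 ± 135 CPM in control (SD, n = 3 each). The fitted fold was 0.624 (95% interval 0.469 to 0.829; log2 fold change -0.68 ± 0.19 SE), and the edgeR adjusted p was 0.0672. The call depended on the setting. Wnt4 passed without Eed cKO 1 (log2 fold change -0.91, edgeR adjusted p 0.0127), without both libraries numbered 1 (log2 fold change -0.80, adjusted p 0.0184), without a filter on low counts (adjusted p 0.0105), in DESeq2 (0.0169) and in limma-voom (0.0382). With any other single library left out it did not pass (edgeR adjusted p 0.0636 to 0.284).

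Wnt16, known in mice for its part in cortical bone, is located on chromosome 6 (22288227 to 22298522, plus strand) and had the opposite order. It was at 62.1, 72.4 and 77.3 CPM in Eed cKO libraries 1, 2 and 3, against 43.8, 52.6 and 40.7 CPM in control libraries 1, 2 and 3. Every Eed cKO library lay above every control library. The means were 70.6 ± 7.74 CPM in Eed cKO and 45.7 ± 6.19 CPM in control (SD, n = 3 each), a fitted fold of 1.54 (95% interval 1.17 to 2.03). The log2 fold change of 0.63 ± 0.18 (SE) had an edgeR adjusted p of 0.0810. It passed in DESeq2 (adjusted p 0.0261), but in no fit that left out a single library (edgeR adjusted p 0.0684 to 0.297).

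Of 7 measured markers of suprabasal keratinocytes 1, Krt10, was called higher and 0 lower. Over all tested genes 3.39% were called higher and 0.816% lower, which is the background for each marker list here. The library ranges of Krt1, Lor, Ivl, Krtdap and Tgm3 overlapped. Those of Sbsn were apart and higher in Eed cKO without a call (log2 fold change 0.54, edgeR adjusted p 0.182). Only Krtdap of the 7 had a fitted log2 value below 0 (-0.16, edgeR adjusted p 0.832). The sum over the 7 genes, most of it Krt1 and Krt10, was 5063, 7283 and 7875 CPM in Eed cKO libraries 1, 2 and 3, against 3283, 4203 and 3898 CPM in control libraries 1, 2 and 3. Eed cKO 1, which had the lowest suprabasal sum of its group, also had the highest Wnt4 and the lowest Wnt16 of its group. Control 1 had the lowest suprabasal sum and the highest Wnt4 of its group, but the lowest Wnt16 was in control 3. The part of these markers in the Wnt4 and Wnt16 values was not tested, and in a bulk sample fewer cells of a type and less RNA per cell cannot be told apart. Merkel cell markers (6 genes) summed to 14.1, 7.75 and 8.13 CPM in Eed cKO libraries 1, 2 and 3, against 0.337, 1.82 and 0.195 CPM in control libraries 1, 2 and 3. Of their 4 tested genes 2 were higher (Isl1 and Sox2), and Atoh1, Isl1 and Sox2 were at 0 in every control library. Krt18 had groups apart and higher (edgeR adjusted p 0.138) and Krt8 had overlapping groups (edgeR adjusted p 0.711), and neither was called. Of 10 hair follicle markers 1 was higher (Hoxc13) and 1 was lower (Krt71). The markers that were called are named after their values were seen. The summed dermal fibroblast markers (7 genes) ran from 566 to 649 CPM in Eed cKO and from 386 to 579 CPM in control, with 0 of 6 tested called. The part of these lists in the Wnt values was not tested.

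**Figure D2:**
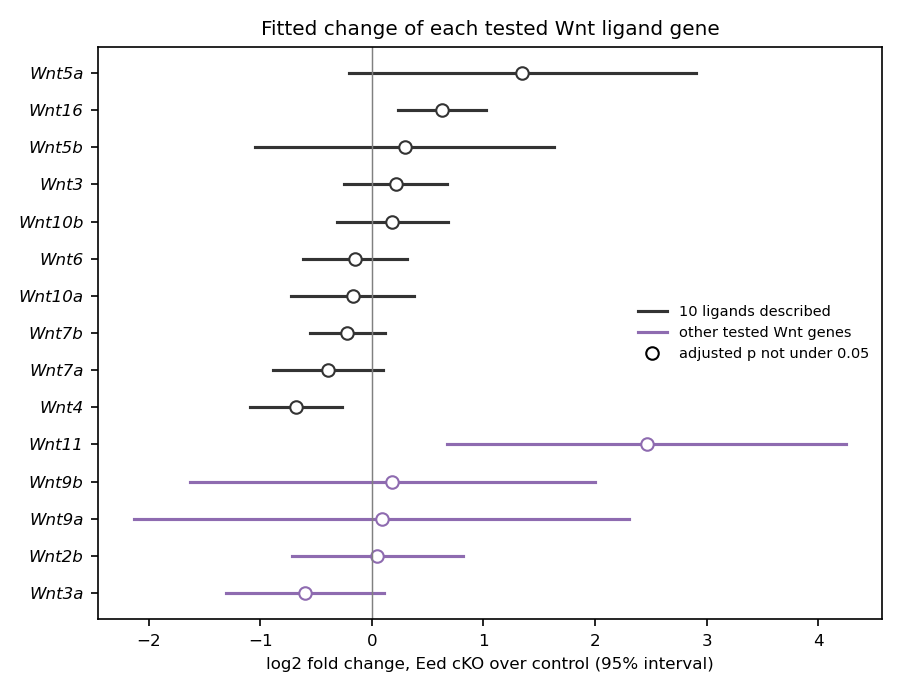
Fitted log2 fold change, Eed cKO over control, with its 95% interval for the 10 ligands (black) and the 5 other tested Wnt genes (purple); open circles mark an adjusted p that was not under 0.05, which holds for all 15. The intervals of Wnt4, Wnt16 and Wnt11 exclude 0, and those of Wnt5a, Wnt5b, Wnt9a, Wnt9b and Wnt11 are the widest.

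Of the ligands best known for signalling through β-catenin, Wnt3, Wnt10a and Wnt10b had overlapping groups. Wnt3 is needed in the mouse for gastrulation. It was at 98.7, 83.4 and 65.9 CPM in Eed cKO libraries 1, 2 and 3, against 69.4, 54.9 and 89.8 CPM in control libraries 1, 2 and 3. Its fitted fold was 1.16 (95% interval 0.843 to 1.59, edgeR adjusted p 0.745), so an increase above 1.59-fold lies outside the interval. On chromosome 11, GENCODE M21 places Wnt3 24328 bases from its neighbour Wnt9b with 0 shared exonic bases, whereas their RefSeq spans overlap by 1098 bases. The annotation used for counting is not known, so whether reads could be split between them was not tested.

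Wnt10a, whose human counterpart is mutated in ectodermal dysplasias, was at 64.0, 31.0 and 66.5 CPM in Eed cKO libraries 1, 2 and 3. In control libraries 1, 2 and 3 it was at 70.1, 61.0 and 50.9 CPM. The low value of Eed cKO 2 stood apart from the other 5 libraries, and it is the library with little Xist. Whether those observations are linked was not tested. The fitted fold was 0.887 (95% interval 0.605 to 1.30, edgeR adjusted p 0.853), and without Eed cKO 2 the log2 fold change was 0.12 in place of -0.17 (edgeR adjusted p 0.915).

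Wnt10b, one of the earliest Wnt genes expressed in mouse hair placodes, was at 46.3, 40.9 and 44.7 CPM in Eed cKO libraries 1, 2 and 3, against 33.5, 29.1 and 53.7 CPM in control libraries 1, 2 and 3. The Eed cKO values lay inside the control range, whose highest value came from control 3. Its fitted fold was 1.14 (95% interval 0.805 to 1.6, edgeR adjusted p 0.815).

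Wnt6, Wnt7a and Wnt7b were likewise not called. Wnt7b, which acts in lung growth and in the vessels of the brain, was second to Wnt4 per exon length. It was at 153.0, 153.6 and 152.0 CPM in Eed cKO libraries 1, 2 and 3, against 159.6, 170.4 and 203.5 CPM in control libraries 1, 2 and 3. The Eed cKO libraries were nearly equal and all below control, but the fold was small, at 0.860 (95% interval 0.679 to 1.09, edgeR adjusted p 0.608). Wnt7b shares 324 exonic bases with the antisense gene AU022754, and reads of the pair cannot be told apart if strand was not used in counting.

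Wnt7a, the dorsal signal of the limb bud, was at 40.5, 37.3 and 26.7 CPM in Eed cKO libraries 1, 2 and 3, against 34.6, 45.7 and 56.9 CPM in control libraries 1, 2 and 3. The groups overlapped through control 1, and the fitted fold was 0.762 (95% interval 0.541 to 1.07, edgeR adjusted p 0.483). Wnt6 lies 6193 bases before Wnt10a on chromosome 1 with no protein-coding gene between them. It was at 43.1, 50.3 and 49.1 CPM in Eed cKO libraries 1, 2 and 3, against 40.5, 69.7 and 47.8 CPM in control libraries 1, 2 and 3. Its high value came from control 2. The fitted fold was 0.901 (95% interval 0.654 to 1.24, edgeR adjusted p 0.842), and without control 2 the log2 fold change was 0.12 in place of -0.15 (edgeR adjusted p 0.891).

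The pair Wnt5a and Wnt5b, known for signalling without β-catenin, had few counts. Wnt5a, which drives the outgrowth of limbs and face in mice, had 81, 83 and 23 counts in Eed cKO libraries 1, 2 and 3, against 16, 21 and 42 counts in control libraries 1, 2 and 3. In CPM these were 2.95, 3.33 and 1.11 in Eed cKO and 0.599, 0.671 and 1.64 in control. The groups overlapped, since Eed cKO 3 lay within the control range. The fitted fold was 2.54, but its 95% interval ran from 0.867 to 7.47 (edgeR adjusted p 0.427). Wnt5a shares 358 exonic bases with the antisense gene Gm2670.

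Wnt5b, a regulator of cartilage growth in mice, had 50, 53 and 38 counts in Eed cKO libraries 1, 2 and 3, against 55, 38 and 37 counts in control libraries 1, 2 and 3. The Wnt5b fold was 1.23 (95% interval 0.485 to 3.11, edgeR adjusted p 0.906). The groups overlapped, and at this depth the interval leaves the direction undetermined.

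To compare ligands with each other, CPM was divided by the merged exon length of each gene. On this scale Wnt4 was at 138 ± 34.4 CPM per kilobase in Eed cKO and 221 ± 32.2 in control (SD, n = 3 each). The next ligand, Wnt7b, was at 31.2 ± 0.161 CPM per kilobase in Eed cKO and 36.3 ± 4.67 in control. The mean of Wnt4 was 4.41 times that of Wnt7b in Eed cKO and 6.08 times in control, with library ranges apart in both groups. Below them came Wnt3, Wnt10a, Wnt6, Wnt16, Wnt10b and Wnt7a in Eed cKO, from 26.9 down to 11.0 CPM per kilobase. In control the order was Wnt10a, Wnt6, Wnt3, Wnt7a, Wnt10b and Wnt16, from 24.6 down to 10.5 CPM per kilobase. From Wnt7b down to the last ligand named, neighbours mostly overlapped between libraries. In Eed cKO the ranges were apart between Wnt6 and Wnt16 and between Wnt16 and Wnt10b, and in control between Wnt7b and Wnt10a. In both groups Wnt5b was also apart from the ligand above it and from Wnt5a. Wnt5b and Wnt5a closed both orders at 0.727 ± 0.0646 and 0.315 ± 0.152 CPM per kilobase in Eed cKO, and at 0.592 ± 0.164 and 0.124 ± 0.0743 in control.

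The length-normalised sum over the 10 ligands was 328, 255 and 258 CPM per kilobase in Eed cKO libraries 1, 2 and 3, against 385, 332 and 381 in control libraries 1, 2 and 3. All Eed cKO sums lay below all control sums, with Eed cKO 1 close to control 2. The ratio of the means was 0.766 (two-sided exact permutation p 0.1, the smallest that 3 against 3 libraries can give). With Wnt4 left out the sum was 151, 136 and 142 CPM per kilobase in Eed cKO, against 134, 145 and 157 in control. Those groups overlapped, and the ratio of the means was 0.983 (exact permutation p 0.8). Leaving out Wnt4, the largest part of the sum and lower in Eed cKO, raises this ratio by construction.

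**Figure D3:**
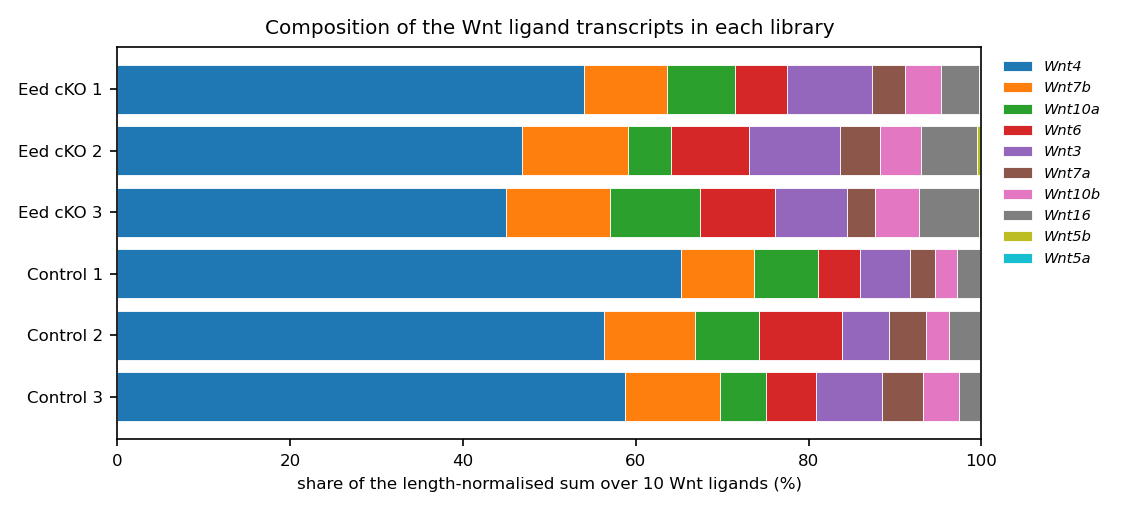
Share of each ligand (%, linear axis) in the length-normalised sum over the 10 ligands, 1 bar for each library, with the 3 Eed cKO libraries above the 3 control libraries. Wnt4 takes 45.0% to 54.1% in Eed cKO and 56.4% to 65.2% in control, and Wnt5a and Wnt5b are too small to see.

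As a share of this ligand sum, Wnt4 made up 54.1%, 46.8% and 45.0% in Eed cKO libraries 1, 2 and 3, against 65.2%, 56.4% and 58.8% in control libraries 1, 2 and 3. The groups were apart, with means of 48.6% ± 4.80 in Eed cKO and 60.1% ± 4.59 in control (SD, n = 3 each). Wnt16 made up 5.91% ± 1.37 in Eed cKO and 2.90% ± 0.646 in control, and Wnt3 made up 9.57% ± 1.18 in Eed cKO and 6.30% ± 1.20 in control. The shares of Wnt10b, Wnt5a and Wnt5b were also apart and higher in Eed cKO. That of Wnt5a was barely so (0.0552% in Eed cKO 3, against 0.0550% in control 3). That of Wnt10b was barely so as well (4.155% in Eed cKO 1, against 4.145% in control 3). For Wnt5b the nearest values were 0.209% in Eed cKO 1 and 0.202% in control 1. For these 6 ligands the two-sided exact permutation p was 0.1, the smallest possible, and 0.167 after adjustment over the 10 ligands. A lower share of Wnt4 raises the others by construction, since the shares sum to a fixed total.

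Within-library ratios of the 3 paralog pairs, which do not depend on library scaling, overlapped between the genotypes. The log2 ratio of Wnt10b to Wnt10a per length was -0.93, -0.06 and -1.04 in Eed cKO libraries 1, 2 and 3, against -1.53, -1.53 and -0.39 in control libraries 1, 2 and 3. The log2 ratio of Wnt7b to Wnt7a averaged 1.53 ± 0.31 in Eed cKO and 1.35 ± 0.20 in control (SD, n = 3 each). The log2 ratio of Wnt5b to Wnt5a averaged 1.35 ± 0.81 in Eed cKO and 2.38 ± 0.98 in control (SD, n = 3 each). Over the 3 pairs the two-sided exact permutation p was 0.5, 0.5 and 0.2, each 0.5 after adjustment.

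None of the other 9 Wnt genes was called. Of them 5 were tested, with 0 higher and 0 lower (3.39% and 0.816% of all tested genes). At an unadjusted p under 0.05 there was 1 (14.9% of all genes), and DESeq2 called 1 higher and 0 lower (4.90% and 1.64%). That gene was Wnt11, which directs cell movements of gastrulation in fish and frogs and kidney branching in mice. It was at 1.49, 1.73 and 1.84 CPM in Eed cKO libraries 1, 2 and 3, against 0.262, 0.479 and 0.156 CPM in control libraries 1, 2 and 3. The groups were apart, from 122 counts over Eed cKO and 26 over control, and the fitted fold was 5.52 (95% interval 1.6 to 19.0). The edgeR adjusted p was 0.138, and 0.0430 in DESeq2. Wnt11 shares 364 exonic bases with the processed pseudogene Gm8398.

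Wnt3a and Wnt2b had the most counts of the 9, with 748 and 779 over Eed cKO and 1271 and 886 over control. Wnt3a, a ligand of the tail bud and hippocampus, was at 7.40, 15.3 and 7.99 CPM in Eed cKO, against 17.1, 11.3 and 18.0 CPM in control (fitted fold 0.661, 95% interval 0.405 to 1.08, edgeR adjusted p 0.445). Wnt2b averaged 10.9 ± 2.48 CPM in Eed cKO and 10.5 ± 4.53 CPM in control (SD, n = 3 each). Wnt9a averaged 1.43 ± 1.42 CPM in Eed cKO, with 0 counts in Eed cKO 3, and 1.35 ± 0.261 CPM in control. Wnt9b averaged 1.41 ± 0.10 CPM in Eed cKO and 1.24 ± 1.23 CPM in control. Wnt1, Wnt2, Wnt8a and Wnt8b had 4, 10, 27 and 19 counts over the 3 Eed cKO libraries and 2, 7, 9 and 7 over the 3 control libraries, too few to be tested. Wnt1 lies 11706 bases from Wnt10b with no protein-coding gene between them.

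The machinery that makes and receives Wnt ligands was expressed, and none of its genes was called, against 4.21% of all tested genes. Of 5 secretion genes 0 were called, and Wls was at 205 ± 46.4 CPM in Eed cKO and 173 ± 36.6 CPM in control (SD, n = 3 each; log2 fold change 0.25, edgeR adjusted p 0.676). The extracellular Wnt deacylase gene Notum was near 0, at 0.871 ± 0.637 CPM in Eed cKO and 0.179 ± 0.161 CPM in control. Of 15 tested receptors 0 were called. The groups were apart for 4 that were higher and 1 that was lower (11.0% and 9.22% of all tested genes). Ror1 and Ror2, receptors of Wnt5a, were among the 4 that were higher. Ryk, which also serves Wnt5a, had overlapping groups (log2 fold change 0.09, edgeR adjusted p 0.912). Ror1 averaged 140 ± 23.0 CPM in Eed cKO and 82.6 ± 24.7 CPM in control (log2 fold change 0.76, edgeR adjusted p 0.0795). Ror2 was at 0.947, 2.21 and 4.07 CPM in Eed cKO libraries 1, 2 and 3, against 0, 0.383 and 0.0781 CPM in control libraries 1, 2 and 3 (edgeR adjusted p 0.0716). Both passed without a filter on low counts (edgeR adjusted p 0.00644 for Ror1 and 0.00737 for Ror2) and in DESeq2 (adjusted p 0.0216 and 0.00250). Ror1 also passed without control 1 (edgeR adjusted p 0.0364) and without both libraries numbered 1 (0.0472), and Ror2 without control 2 (0.0326). Of 7 tested genes of the R-spondin axis, which stabilises Frizzled receptors, 0 were called. The R-spondin gene Rspo1 averaged 2.41 ± 1.65 CPM in Eed cKO and 0.386 ± 0.159 CPM in control (SD, n = 3 each). Its edgeR adjusted p was 0.118, its groups were apart, and it passed in DESeq2 (adjusted p 0.0232). Lgr6 of this list had overlapping groups (log2 fold change 0.63, edgeR adjusted p 0.256). It passed without a filter on low counts (edgeR adjusted p 0.0446) and without control 1 (0.0305).

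Of 11 tested secreted and membrane antagonists, 2 were higher, 1 was lower and 8 did not pass, against 3.39% higher and 0.816% lower over all tested genes. Sfrp1, a secreted protein that binds Wnt ligands, was at 96.6, 51.8 and 76.8 CPM in Eed cKO libraries 1, 2 and 3, against 25.1, 35.2 and 24.6 CPM in control libraries 1, 2 and 3. It was higher in every Eed cKO library (log2 fold change 1.41, edgeR adjusted p 0.00389) and was called in every fit that left out 1 library. Dkk3, a member of the Dickkopf family, averaged 80.9 ± 8.0 CPM in Eed cKO and 41.0 ± 15.0 CPM in control (log2 fold change 0.98, edgeR adjusted p 0.0291). The Dkk3 call was lost without any one library except control 3 (edgeR adjusted p 0.0512 to 0.138). Kremen2, a Dickkopf receptor, averaged 51.8 ± 14.5 CPM in Eed cKO and 106 ± 14.1 CPM in control (log2 fold change -1.04, edgeR adjusted p 0.0114). The Kremen2 call did not hold when library 2 or library 3 of Eed cKO was left out (edgeR adjusted p 0.0683 and 0.0789).

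Downstream of the receptors, 0 of 11 transducers, 1 of 12 nuclear factors and 1 of 12 feedback targets were called. Over all tested genes the share called was 4.21% in either direction. The nuclear factor was Bcl9, a β-catenin coactivator, at 198 ± 19.3 CPM in Eed cKO and 303 ± 31.6 CPM in control (log2 fold change -0.61, edgeR adjusted p 0.0463). The Bcl9 call was lost without any single library and with upper-quartile scaling (edgeR adjusted p 0.0572 to 0.196). The target was the cyclin gene Ccnd1, at 452 ± 43.5 CPM in Eed cKO and 199 ± 45.2 CPM in control (log2 fold change 1.18, edgeR adjusted p 0.00180). Ccnd1 answers to many signals besides Wnt. Lef1, both a partner and a target of β-catenin, averaged 309 ± 44.7 CPM in Eed cKO and 419 ± 46.1 CPM in control (edgeR adjusted p 0.194). The groups of Lef1 were apart and lower. Among the nuclear factors the groups were apart for 1 that was higher and 4 that were lower (11.0% and 9.22% of all tested genes). Among the feedback targets they were apart for 4 that were higher and 1 that was lower. Axin2, the target most often used as a readout of β-catenin signalling, was at 155, 156 and 150 CPM in Eed cKO libraries 1, 2 and 3, against 155, 95.5 and 105 CPM in control libraries 1, 2 and 3 (edgeR adjusted p 0.390). Its groups overlapped through control 1, and Axin2 was singled out here after its values were seen. The corepressor gene Tle1 (log2 fold change 0.79, edgeR adjusted p 0.0832) and Myc (0.61, edgeR adjusted p 0.0917) had groups that were apart and higher without passing. Both passed in DESeq2 (adjusted p 0.0297 for Tle1 and 0.0302 for Myc). Tle1 also passed without Eed cKO 1 (edgeR adjusted p 0.0329). Myc also passed without a filter on low counts (edgeR adjusted p 0.0272), without control 1 (0.0290) and without both libraries numbered 1 (0.0465). Of 12 planar polarity genes 0 were called. Among them Prickle2, a cytoplasmic planar polarity gene, averaged 10.7 ± 1.51 CPM in Eed cKO and 6.30 ± 0.384 CPM in control (SD, n = 3 each; log2 fold change 0.76, edgeR adjusted p 0.245). The cadherin gene Celsr1 averaged 602 ± 28.0 CPM in Eed cKO and 772 ± 60.5 CPM in control (SD, n = 3 each; log2 fold change -0.36, edgeR adjusted p 0.260).

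Counting each gene once, 3 of the 79 tested pathway genes were higher and 2 were lower, against 4.21% of all tested genes in either direction. DESeq2, which tested 16601 genes in place of 14700, called 9 higher and 2 lower among the 89 pathway genes in the files. Its shares over all genes were 4.90% and 1.64%. The median log2 fold change of the 79 pathway genes was 0.07, against -0.01 for all tested genes. Among the antagonists the median was 0.26, among the receptors 0.09, among the nuclear factors -0.12 and among the feedback targets 0.56. These medians are descriptions, and the feedback targets include genes near 0 in control, such as Notum.

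**Figure D4:**
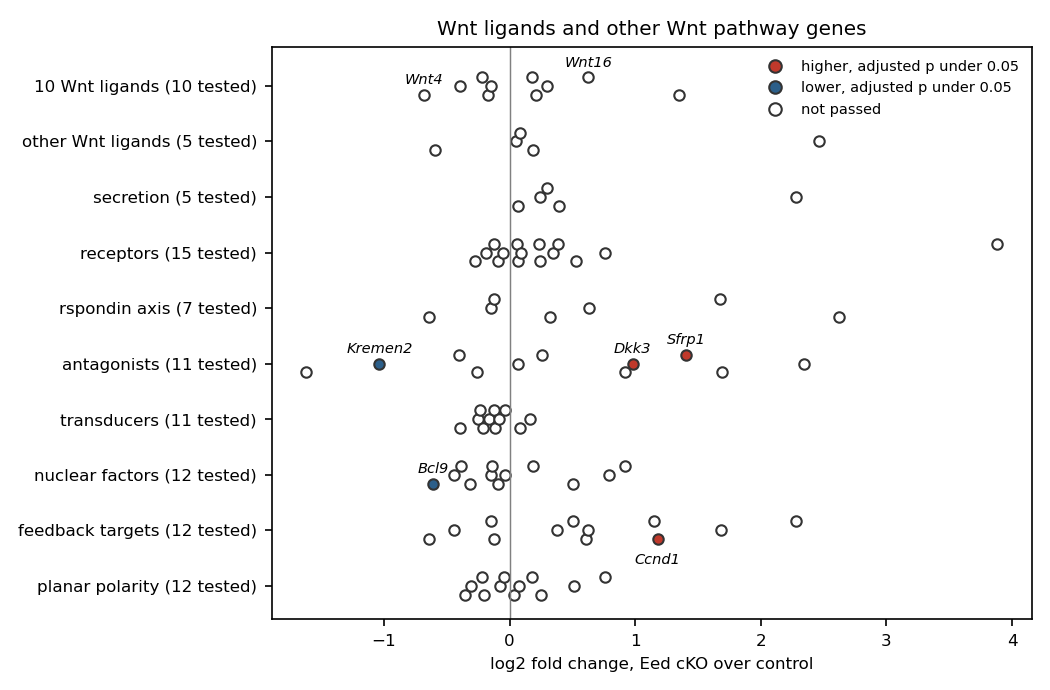
Log2 fold change, Eed cKO over control, of every tested ligand and pathway gene, 1 row for each list, with filled points for genes with an adjusted p under 0.05 (red higher, blue lower). The filled points are Sfrp1, Dkk3, Kremen2, Bcl9 and Ccnd1, and the 10 ligands are all open.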

How the data were processed

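RNA-seq was made from 3 Eed cKO and 3 control libraries. The authors deposited raw counts per gene symbol with no normalization, checked here to be whole numbers. Per the submitters' processing notes, HTSeq 0.6.1, TopHat2 2.0.13, DESeq2 1.6.3 and Cufflinks 2.2.1 were used with the mm10 genome, in roles and an order not stated. The sources used here do not give the annotation or the strand setting of the counting. Since the RNA was amplified, counting precision is less than read numbers alone would give.

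edgeR 4.0.16 (R 4.3.3) was used for the counts. filterByExpr kept 14700 genes and removed 9753, and libraries were scaled by TMM. Genotype alone was fitted, and p-values of the quasi-likelihood F-test were adjusted by Benjamini-Hochberg over all tested genes (threshold 0.05). SE and 95% intervals of log2 fold changes were derived from the F statistic and its degrees of freedom. CPM values are TMM-normalised. Single values were compared by two-sided exact permutation over 3 against 3 libraries, whose smallest p is 0.1. Gene positions, merged exon lengths and shared exonic bases (either strand) were taken from GENCODE M21 (GRCm38, the same assembly as mm10), and promoters from RefSeq on GRCm38.p6.

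The members, the lists and the tests were chosen with earlier results of these data known. Genes named were all Wnt genes, Eed and, among each pathway list, those with the smallest p-values, from which a few are given. Of 90 listed pathway genes 89 were in the files. Alternatives were RLE and upper-quartile scaling, other filters, DESeq2 1.42.0, limma-voom (limma 3.58.1), a replicate block, coding length and leaving out each library. The fit without both libraries numbered 1 was chosen after seeing the data. The pipeline was tested on simulated data. Figures used Python 3.11.15 and matplotlib 3.10.9.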

Additional observations from a re-analysis of the deposited data

How the results depend on the processing

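The count of ligands called was small enough for the setting to matter. The number called higher was 1 with DESeq2 (4.90% of all genes) and 1 with a replicate block (4.59%), in place of 0. The number called lower was 1 without a filter on low counts (1.31% of all genes) and 1 with the replicate block (1.83%). It was 1 with DESeq2 (1.64%), 1 with limma-voom (0.823%) and 1 without both libraries numbered 1 (0.728%). When single libraries were left out it was from 0 to 1 (0.230% to 0.785%). Those ligands were Wnt16 and Wnt4, whose replicate-block edgeR adjusted p was 0.0457 and 0.00825. The block over all genes gave 675 calls higher and 269 lower, against 499 and 120 without it. Same-numbered libraries correlated at 0.230, 0.108 and -0.00138 in their deviations from the group means, and Eed cKO 3 correlated best with control 2 (0.0994), so the numbers were not taken to pair them. DESeq2 called 1 of the other Wnt genes higher (4.90% of all genes). Of the 89 pathway genes in the files, 8 were higher without a filter (3.75% of all genes), 8 with the block (4.59%) and 9 with DESeq2 (4.90%). The block, like the main fit, tested 79 of them, and the other 2 settings tested other numbers of genes. Without single libraries, from 2 to 5 were higher (1.99% to 3.02% of all genes). The number lower was 1 with upper-quartile scaling (0.694% of all genes) and 1 without both libraries numbered 1 (0.728%). It was from 0 to 1 without single libraries (0.230% to 0.785%).

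Some directions were not stable. Leaving out single libraries gave log2 fold changes from -0.31 to 0.12 for Wnt6, -0.35 to 0.12 for Wnt10a, -0.25 to 0.37 for Wnt2b, -0.89 to 0.66 for Wnt9a and -0.29 to 1.33 for Wnt9b. Wnt9a was at -0.64 with the block, -1.28 with limma-voom and -0.74 without both libraries numbered 1. The log2 ratio of Wnt7b to Wnt7a differed by -0.000357 to 0.296 without single libraries. The share of Wnt7a differed by -0.607 to 0.328 percentage points and that of Wnt10a by -0.330 to 2.43, and with coding length that of Wnt7a differed by 0.0501. The cause was not tested. The few counts of Wnt5a, Wnt5b, Wnt9a, Wnt9b and Wnt11 limit how small a difference could be detected.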
